A study of Mus musculus with 24 samples.

Results

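The genes described here are 40 genes of one-carbon, folate and choline metabolism, measured in the hippocampus of mice whose fathers or grandfathers had eaten a diet rich in methyl donors. They were chosen by name and function, by a rule that uses no measured value though earlier results of these data were known, from the 19751 genes that could be named on the array, and each was read from the probe with the highest mean log2 signal over all arrays. All 40 had at least 1 probe, 64 probes in all, and 18 had more than 1. The methionine adenosyltransferases are not among them. The probes that stand for Amd1 carry a transcript now named Amd2, a near-identical copy, so that the signal of the pair cannot be told apart.

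One-carbon metabolism passes single carbon units from serine, glycine, choline and histidine through tetrahydrofolate to the synthesis of nucleotides and to methionine. Methionine is turned into S-adenosylmethionine, the methyl donor for DNA, histones, lipids and small molecules, and the S-adenosylhomocysteine left behind is split to homocysteine, which is either methylated again or drained into cysteine. Betaine, the oxidation product of choline, is the alternative methyl donor for homocysteine in liver and kidney, whereas the brain depends on the folate route.

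RNA came from 24 arrays of hippocampus, 6 in each of 4 groups, and each array held a pool of 4 mice labelled as 4 weeks old, so that the spread between arrays is one between pools. CD F1 and MD F1 were offspring of C57BL/6J males mated with 129S6/SvEv females (congenic C57BL/6J x 129S6/SvEv hybrids in the labels). The fathers had received either a control diet (CD, from Envigo) or an experimental methyl donor diet (MD, 3MS ZM) for 6 weeks before mating. The supplement of the MD was 15 g each of betaine and choline, 7.5 g of l-methionine, 150 mg of zinc, 15 mg of folic acid and 1.5 mg of vitamin B12, in an amount of food that the labels do not state. CD F2 and MD F2 were offspring of male CD F1 or MD F1 mice and CD F1 females, labelled as mixed C57BL/6J x 129S6/SvEv hybrids. Mice of all 4 groups ate the control diet themselves, and the supplement was thus given only to the father or the grandfather. Sex was not given per array.

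All 10 markers of hippocampal neurons were well above background on every array, and 8 of 10 had lower means in MD F1 (median difference -0.13). Of the 10, 2 had an unadjusted p under 0.05 in F1, against 13.4% of all genes. Between 27383 and 37013 spots per array were well above background, with the fewest in F2, at 27383 for MD replicate 3 and 28000 for CD replicate 6. MD F1 replicate 6 stood apart from its group for several genes, as described below. A list of 12 choroid plexus markers (Ttr, Folr1, Kl and others), genes of the tissue that lies against the hippocampus in the ventricle, varied most. Their summed signal on the log2 scale lay between 12.04 and 16.67 in CD F1 (median 15.99), 12.08 and 17.84 in MD F1 (16.60), 11.48 and 18.14 in CD F2 (17.85) and 11.70 and 17.77 in MD F2 (13.15). All 12 had a higher mean in MD F1 than in CD F1 and all 12 a lower mean in MD F2 than in CD F2, none with an unadjusted p under 0.05. Each of the 12 was well above background on at least 4 arrays of every group. In bulk tissue, fewer cells of a type and less RNA per cell cannot be told apart.

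The first comparison asked whether the diet of the father was followed by a different expression of these genes in F1 hippocampus. In limma fits across all 39429 probes, 0 of the 40 genes passed a false discovery rate (FDR) of 0.1, against 0.0203% of all genes read from their brightest probe. At an unadjusted p under 0.05, 8 of the 40 (20%) differed, against 13.4% of all genes. Of these, 5 (12.5%) were higher in MD F1, where the share among all genes was 7.82%, namely Fpgs, Sardh, Shmt2, Chdh and Mthfd1l. The other 3 (7.5%, against 5.54% of all genes) were lower, namely Amt, Gcsh and Ahcy. The median difference of the 40, MD F1 minus CD F1, was 0.02 on the log2 scale, and 0.02 over all genes, with 22 of the 40 above 0. The differences of 36 of the 40 were smaller than 0.3, and the median width of the 95% interval to either side was 0.22. The values of these F1 differences changed without scaling of the arrays, as did the median of all probes. Without normalization that median was -0.28. Fpgs then differed by 0.0036, Sardh by -0.0931, Shmt2 by -0.0623, Chdh by -0.0167 and Mthfd1l by -0.0267. The values were -0.97 for Amt, -0.33 for Gcsh and -0.65 for Ahcy. The first 5 genes thus stayed above the median of all probes and the other 3 below it, Gcsh by little.

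The second comparison asked the same of the grandfather's diet in F2. Again 0 of 40 passed an FDR of 0.1, as did 0% of all genes, and 3 of 40 (7.5%) had an unadjusted p under 0.05, against 5.65% of all genes. These were Dmgdh, Ggh and Mtap, all with lower means in MD F2. The median difference of the 40 was -0.03, with 16 of 40 above 0 and a median of 0.01 over all genes. None of the 8 genes with an unadjusted p under 0.05 in F1 had one in F2. The test of the difference between the generations, (MD F1 minus CD F1) minus (MD F2 minus CD F2), called 0 of 40 at an FDR of 0.1 (0.0253% of all genes). It gave 3 of 40 at an unadjusted p under 0.05, namely Chdh, Dmgdh and Amt (7.5%, against 7.99% of all genes).

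**Figure D1:**
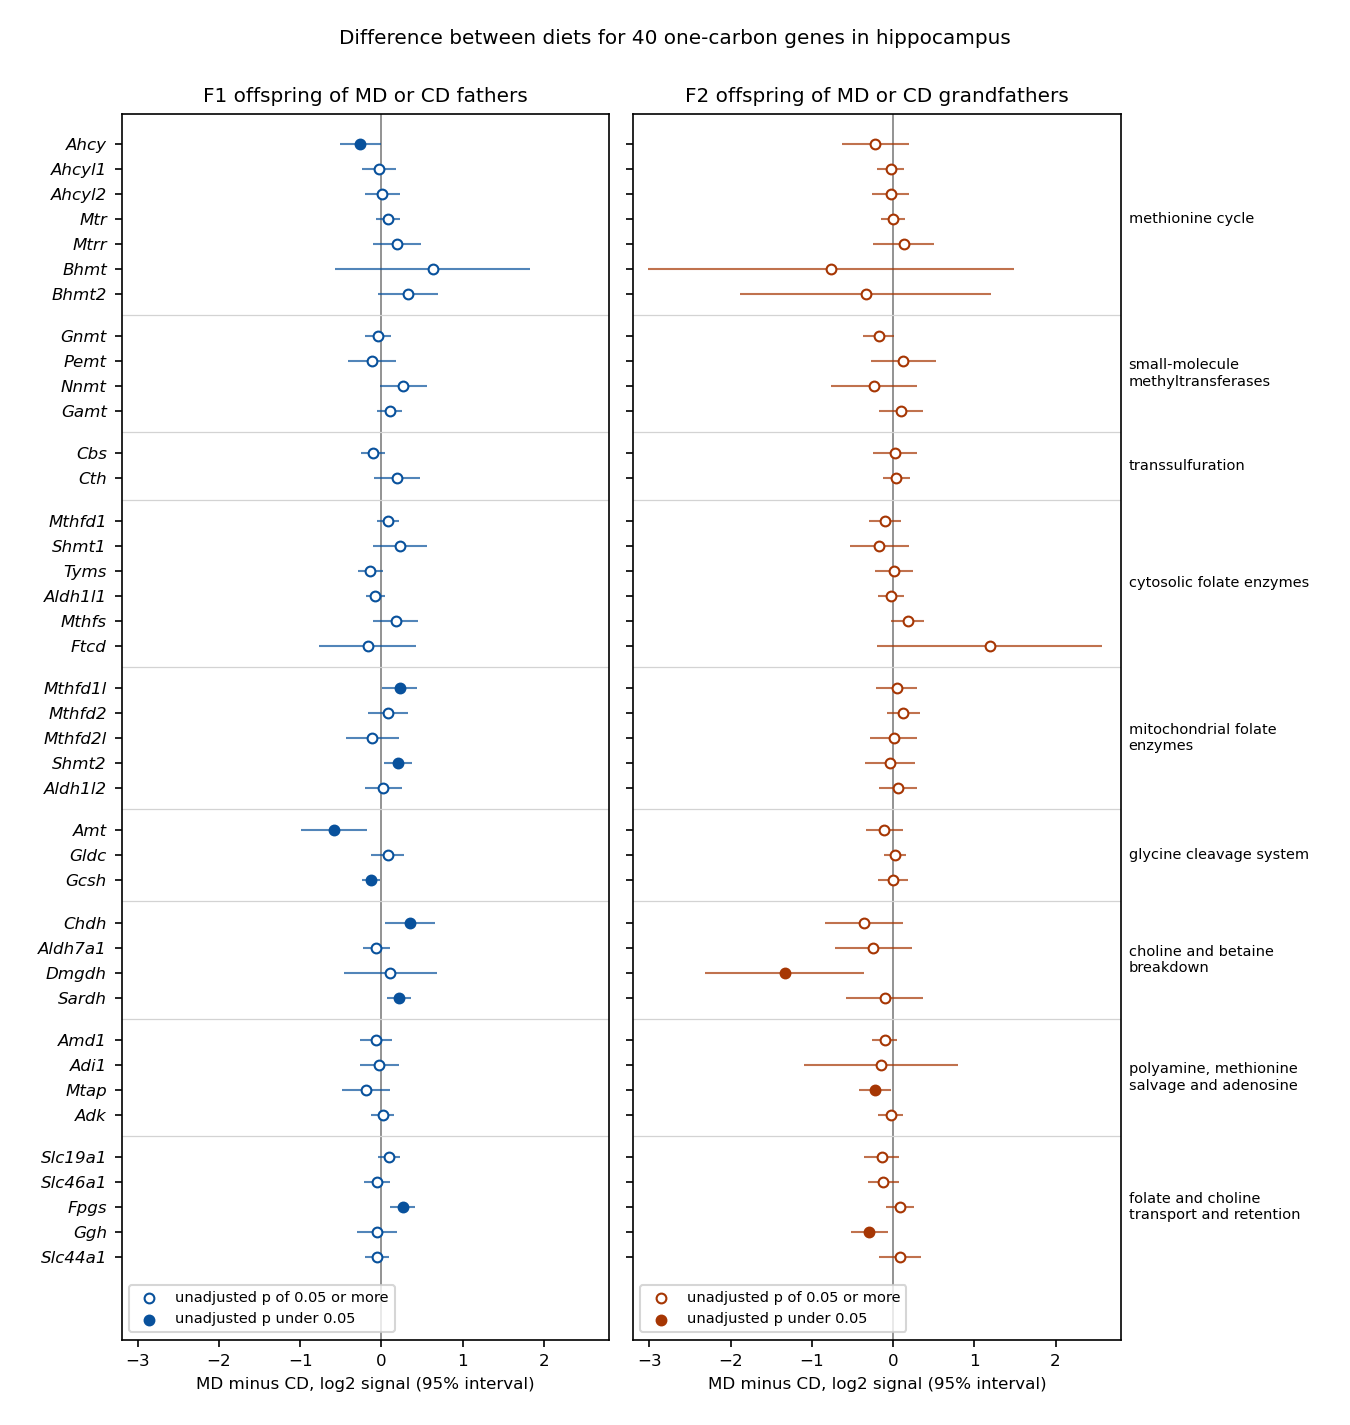
Difference between diets for each of the 40 genes, ordered by role, in F1 (left, blue) and F2 (right, red). Points are MD minus CD on the log2 scale from limma, bars are 95% intervals, and filled points have an unadjusted p under 0.05 (8 in F1, 3 in F2). In F2 the widest intervals are those of Bhmt, Bhmt2, Ftcd and Dmgdh, the 4 genes that were not well above background on all 24 arrays.

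In the methionine cycle, 7 genes were measured. Ahcy, the hydrolase that removes S-adenosylhomocysteine, had log2 signals from 5.90 to 6.18 in CD F1 (median 6.05) and from 5.39 to 6.07 in MD F1 (median 5.90). The MD F1 arrays reached lower, most of all replicates 6 and 4 at 5.39 and 5.57, while the other 4 lay within or just below the CD F1 range. The mean was lower by 0.26 ± 0.11 (SE) in MD F1 or -16.4% (limma, unadjusted p = 0.0437, FDR 0.337), and the other Ahcy probe gave -0.26 as well. Without MD F1 replicate 6 the unadjusted p was 0.0797. With a covariate made from sex-linked genes the difference was -0.05 (unadjusted p = 0.552), and with another background correction (normexp) -0.13 (unadjusted p = 0.0917). Over all probes in F1, the sex covariate changed the number at an FDR of 0.1 from 13 to 0. The share with an unadjusted p under 0.05 went from 14.4% to 9.94%. The level of the sex-linked genes was not compared between the diets. Within the 3 slides, each with 2 arrays per diet, the difference was -0.47, -0.02 and -0.28. In F2, Ahcy ranged from 6.36 to 7.10 in CD F2 and from 6.12 to 7.04 in MD F2, and the difference was -0.22 with an interval of -0.63 to 0.19. The difference between the generations was -0.06, with an interval of -0.52 to 0.40, which holds differences in either direction.

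Mtr, the vitamin B12-dependent methionine synthase, ranged from 7.07 to 7.36 in CD F1 and from 7.19 to 7.46 in MD F1. The groups overlapped, and the difference of 0.08 had an interval of -0.07 to 0.23. In F2 Mtr ranged from 6.96 to 7.24 in CD F2 and from 6.92 to 7.19 in MD F2, with a difference of -0.00 and an interval of -0.15 to 0.15. Mtrr, the reductase that restores methionine synthase, differed by 0.19 in F1 and by 0.13 in F2. The hydrolase-like genes Ahcyl1 and Ahcyl2 differed by 0.03 or less in either generation.

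Bhmt and Bhmt2, the methyltransferases that use betaine or a related donor to methylate homocysteine, were singled out after their values were seen, because they varied more between arrays of 1 group than between diets. This was not particular to them, and Ahcyl1 and Adi1, for example, did so as well. Bhmt2 and Dmgdh, the mitochondrial dehydrogenase that oxidises the dimethylglycine made by Bhmt, lie head to head on chromosome 13 with 133 bases between their RefSeq starts, and Bhmt lies nearby on the same chromosome. The stretch between the Bhmt2 and Dmgdh starts and the 250 bases before the Bhmt start are shown because these 3 neighbouring genes are 3 of the 4 genes not well above background on all arrays. Both are from RefSeq promoters on GRCm38.p6, 5′ to 3′, with each CG in capitals. The first is the plus strand at chr13:93674303-93674435, and the second the minus strand at chr13:93637759-93638008.
between the Bhmt2 and Dmgdh starts: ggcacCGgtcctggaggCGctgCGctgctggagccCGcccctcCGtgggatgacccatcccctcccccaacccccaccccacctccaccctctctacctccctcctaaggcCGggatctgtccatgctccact
before the Bhmt start: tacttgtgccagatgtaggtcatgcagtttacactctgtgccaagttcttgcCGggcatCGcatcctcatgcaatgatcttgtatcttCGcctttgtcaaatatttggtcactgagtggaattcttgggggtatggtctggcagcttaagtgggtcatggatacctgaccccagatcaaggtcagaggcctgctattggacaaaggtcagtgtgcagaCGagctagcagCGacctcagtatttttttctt
The short shared stretch held 6 CG and the longer Bhmt stretch 5, a number that 49.6% of all 32851 RefSeq promoters do not exceed in their 250 bases before the start. In the 250 bases before their own starts, which reach beyond the shared stretch, Bhmt2 had 20 CG and Dmgdh 16. Over the 46 promoter entries of the 34 genes that had one, the median was 12.5 CG in 250 bases, against 6 over all entries, with a range from 1 to 42. DNA methylation was not part of these arrays.

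Bhmt ranged from 4.72 to 7.19 in CD F1 (median 6.68) and from 5.06 to 8.55 in MD F1 (median 6.92). In F2 it measured 7.89, 8.29, 4.61, 7.69 and 2.65 on CD F2 replicates 1, 2, 4, 5 and 6, where the spot of replicate 3 was irregular and left out, and 5.71, 7.48, 5.23, 4.41, 5.02 and 4.94 on MD F2 replicates 1 to 6. The CD F2 arrays thus held both the highest and the lowest values of the generation. The difference was 0.63 ± 0.55 (SE) in F1 and -0.76 ± 1.02 (SE) in F2, neither larger than the spread between arrays. Bhmt was high on those arrays on which the choroid plexus markers were high. The mean log2 signal of the 12 markers was 11.41 to 12.20 on CD F2 replicates 1, 2, 3 and 5 and 11.35 on MD F2 replicate 2, and Bhmt was 7.48 to 8.29 on those of them that gave a value. On the other 7 F2 arrays the markers lay between 6.67 and 8.55 and Bhmt between 2.65 and 5.71. In F1 the lowest Bhmt signal of each group, 4.72 and 5.06, fell on replicate 4 of that group, where the markers were at 7.21 and 7.26, and the highest, 8.55, on MD F1 replicate 5, where they were at 11.40. The part of the choroid plexus level in the differences of Bhmt was not tested.

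Bhmt2 ranged from 4.82 to 5.51 in CD F1 and from 5.02 to 5.87 in MD F1, a difference of 0.33 with an interval of -0.05 to 0.70. In F2 it was well above background on 4 of 6 CD F2 and 5 of 6 MD F2 arrays and ranged from 1.81 to 5.40 and from 1.55 to 4.87. The lowest values, 1.81 and 1.55, were those of CD replicate 6 and MD replicate 3, which had the fewest spots above background. On that CD array its head-to-head neighbour Dmgdh instead had its highest value of the generation, 5.92.

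**Figure D2:**
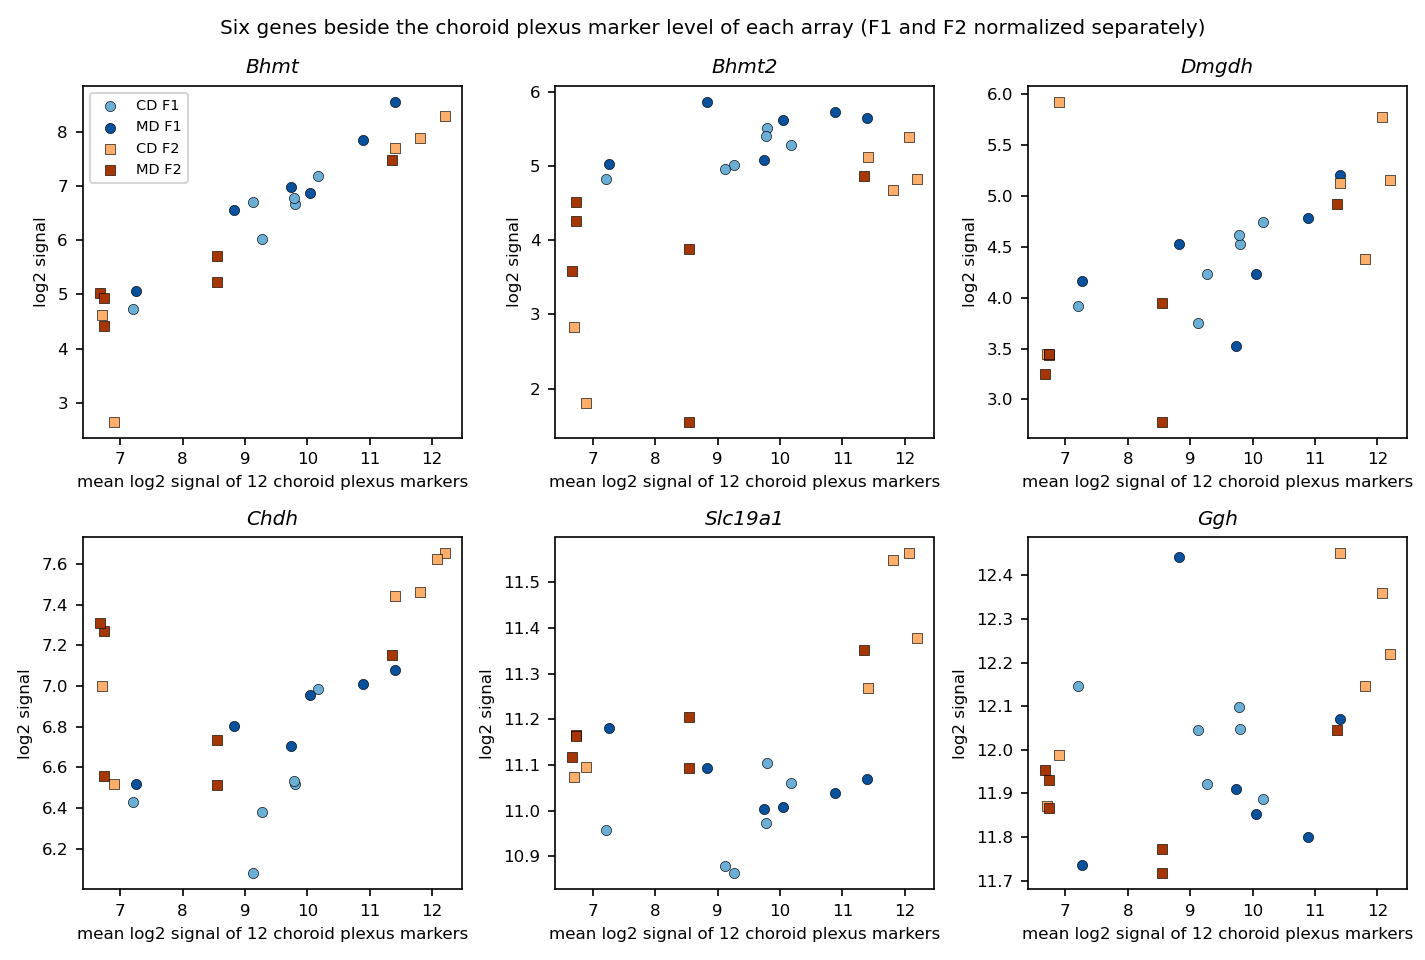
Log2 signal of Bhmt, Bhmt2, Dmgdh, Chdh, Slc19a1 and Ggh on each array against the mean log2 signal of 12 choroid plexus markers on the same array. Circles are F1 and squares F2 arrays, lighter for CD and darker for MD, and the generations were normalized separately. Bhmt runs from 2.65 on an array with markers at 6.90 to 8.55 on one with markers at 11.40, and CD F2 replicates 1, 2, 3 and 5 lie at the right of every panel in which they have a value.

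In the breakdown of choline and betaine, which feeds methyl and one-carbon units into mitochondria, 3 of 4 genes had higher means in MD F1 and all 4 had lower means in MD F2. Chdh, the choline dehydrogenase that makes betaine aldehyde, ranged from 6.08 to 6.99 in CD F1 (median 6.47) and from 6.52 to 7.08 in MD F1 (median 6.88). Only CD F1 replicate 1, at 6.99, reached the upper MD F1 arrays, and the other 5 CD F1 arrays lay at or below 6.53. The mean was 0.36 ± 0.14 (SE) higher in MD F1, or 28.0% (limma, unadjusted p = 0.0267, FDR 0.299), with differences of 0.46, 0.58 and 0.03 within the slides. In F2, Chdh ranged from 6.52 to 7.65 in CD F2 (median 7.45) and from 6.51 to 7.31 in MD F2 (median 6.94), a difference of -0.36 with an interval of -0.84 to 0.12. The difference between the generations was 0.72 ± 0.27 (SE) (limma, unadjusted p = 0.0132, FDR 0.476). Of its other 2 probes, 1 differed in the same direction as the brightest in either generation, by 0.33 and -0.57, and 1 did not, with -0.02 and 0.11. With normexp the F1 difference was 0.15 and that between the generations 0.40, and scaling to the 75th percentile gave 0.24 in F1. The 4 highest Chdh values in F2, 7.44 to 7.65, belonged to CD F2 replicates 1, 2, 3 and 5, on which the choroid plexus markers were highest. With the marker level as a covariate, an alternative added after the data were seen, the difference was 0.30 in F1, -0.15 in F2 and 0.44 between the generations (FDR 0.316, 0.997 and 0.692).

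Sardh, the sarcosine dehydrogenase of the same mitochondrial chain, was the only one of the 40 genes whose groups did not overlap on the brightest probe, in F1 (2.5%, against 1.67% of all genes). Over all 64 probes of the 40 genes, 3 did not overlap in F1, where the share over all probes was 1.79%. The others were 1 probe each of Pemt and Slc44a1. Its CD F1 arrays lay between 8.35 and 8.54 (median 8.44) and its MD F1 arrays between 8.57 and 8.86 (median 8.64). The gap was narrow, since 3 MD F1 arrays stood at 8.57 or 8.58, just above the highest CD F1 array. The mean was 0.22 ± 0.07 (SE) higher in MD F1, or 16.4% (limma, unadjusted p = 0.0067, FDR 0.224; exact permutation test, 2-sided p = 0.00216, the smallest that 6 arrays against 6 can give). Within the slides the difference was 0.27, 0.28 and 0.11, and with normexp it was 0.14. In F2, Sardh was spread more widely, from 8.07 to 8.94 in CD F2 and from 8.14 to 9.10 in MD F2, and the difference was -0.10 with an interval of -0.58 to 0.37. None of the 40 genes had groups that did not overlap in F2 (0.38% of all genes).

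Dmgdh ranged from 3.75 to 4.74 in CD F1 and from 3.52 to 5.20 in MD F1, a difference of 0.11 with an interval of -0.47 to 0.68. In F2 it measured 4.38, 5.15, 5.77, 3.45, 5.12 and 5.92 on CD F2 replicates 1 to 6 and 3.95, 4.91, 2.78, 3.43, 3.25 and 3.44 on MD F2 replicates 1 to 6. All MD F2 arrays but replicate 2 lay at or below 3.95, and all CD F2 arrays but replicate 4 at or above 4.38. The mean was lower by 1.34 ± 0.45 (SE) in MD F2 (limma, unadjusted p = 0.0117, FDR 0.890), and the differences within the slides were -1.06, -1.58 and -1.38. It was well above background on 5 of 6 CD F2 arrays but on 2 of 6 MD F2 arrays, so that the size of the difference cannot be read exactly. With normexp it was -0.31 in F2 (limma, unadjusted p = 0.00624, FDR 0.912) and 0.42 between the generations (unadjusted p = 0.0025, FDR 0.387). Without the F2 arrays with the fewest spots above background, CD replicate 6 and MD replicate 3, which held the highest and the lowest Dmgdh value, the difference was -0.99 (unadjusted p = 0.0583). The difference between the generations was 1.41 ± 0.53 (SE) (limma, unadjusted p = 0.0140, FDR 0.481). The mean of the choroid plexus markers was 6.67 to 8.55 on MD F2 replicates 3 to 6, where Dmgdh was 3.44 or lower, but 6.90 on CD F2 replicate 6, where Dmgdh was highest. With the marker level as a covariate the F2 difference was -1.001 (unadjusted p = 0.0581). Aldh7a1, the betaine aldehyde dehydrogenase, differed by -0.06 in F1 and by -0.24 in F2, where CD F2 spanned 12.24 to 13.47.

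The glycine cleavage system, which splits glycine to load tetrahydrofolate in mitochondria and in brain is found mainly in astrocytes, was represented by 3 genes. Amt, its aminomethyltransferase, ranged from 6.12 to 6.47 in CD F1 (median 6.33) and from 4.83 to 6.22 in MD F1 (median 5.83). The MD F1 arrays were low as a group, with 5 of 6 below every CD F1 array, and replicate 6 was far below the others at 4.83. The mean was lower by 0.58 ± 0.19 (SE), or -33.1% (limma, unadjusted p = 0.0090, FDR 0.240; exact permutation test, 2-sided p = 0.00649). Without replicate 6 the difference was -0.40 (unadjusted p = 0.00128). With normexp it was -0.26 (limma, unadjusted p = 0.00388, FDR 0.209), and with the covariate from sex-linked genes -0.24 (unadjusted p = 0.105). Within the slides it was -1.002, -0.42 and -0.33. In F2 the ranges were 6.59 to 7.09 in CD F2 and 6.65 to 6.95 in MD F2, a difference of -0.11 with an interval of -0.34 to 0.12. The difference between the generations was -0.50 ± 0.23 (SE) (limma, unadjusted p = 0.0385, FDR 0.577), and -0.14 with normexp (unadjusted p = 0.146).

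Gcsh, the carrier protein of the complex, ranged from 13.45 to 13.65 in CD F1 (median 13.54) and from 13.33 to 13.48 in MD F1 (median 13.41), and 1 CD F1 array, replicate 6 at 13.45, lay within the MD F1 range. The mean was lower by 0.13 ± 0.05 (SE) in MD F1 (limma, unadjusted p = 0.0289, FDR 0.307), with -0.13, -0.10 and -0.16 within the slides. The other Gcsh probes differed by -0.01 and 0.09, and the mean of all its probes by -0.0167. Scaling to the 75th percentile gave -0.0777. In F2 the Gcsh difference was 0.00 with an interval of -0.18 to 0.19. Gldc, the glycine decarboxylase, ranged from 11.73 to 12.02 in CD F1 and from 11.63 to 12.12 in MD F1 and differed by 0.08, with an interval of -0.12 to 0.28. In F2 its ranges were 11.72 to 11.94 and 11.78 to 11.97, and the difference was 0.02. The 10 astrocyte markers all had lower means in MD F1, whereas 54.7% of all genes had higher ones. An unadjusted p under 0.05 was found for 3 of them, against 13.4% of all genes, and none passed at an FDR of 0.1. Their summed signal on the log2 scale was 16.82 to 16.97 in CD F1 and 16.68 to 16.84 in MD F1. All 10 were well above background on every array, and their part in the differences of Amt and Gcsh was not tested.

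Among the 5 mitochondrial folate enzymes, 4 had higher means in MD F1, as did 54.7% of all genes, and 2 an unadjusted p under 0.05, a share of 13.4% among all genes. Shmt2, which makes glycine and methylene-tetrahydrofolate from serine, ranged from 10.05 to 10.45 in CD F1 (median 10.15) and from 10.27 to 10.58 in MD F1 (median 10.37). CD F1 replicate 5 at 10.45 stood apart from the other 5, which ended at 10.17 and lay below all MD F1 arrays. The mean was 0.21 ± 0.08 (SE) higher, or 15.5% (limma, unadjusted p = 0.0219, FDR 0.292), and 0.17, 0.24 and 0.22 higher within the slides. In F2 the Shmt2 ranges were 9.98 to 10.54 and 9.96 to 10.66, a difference of -0.04 with an interval of -0.35 to 0.27.

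Mthfd1l, the mitochondrial enzyme that releases formate, ranged from 10.34 to 10.7006 in CD F1 (median 10.55) and from 10.59 to 11.16 in MD F1 (median 10.73). The highest value was that of MD F1 replicate 6, and the other 5 MD F1 arrays lay between 10.59 and 10.79, across the upper end of the CD F1 range. Without replicate 6 the difference was 0.15 (unadjusted p = 0.0576), and with the covariate from sex-linked genes 0.10. The mean was 0.23 ± 0.10 (SE) higher (limma, unadjusted p = 0.0393, FDR 0.327), and the other Mthfd1l probe gave 0.26. In F2, Mthfd1l differed by 0.04 with an interval of -0.21 to 0.30. Mthfd2, Mthfd2l and Aldh1l2 differed by -0.11 to 0.08 in F1 and by 0.01 to 0.13 in F2.

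**Figure D3:**
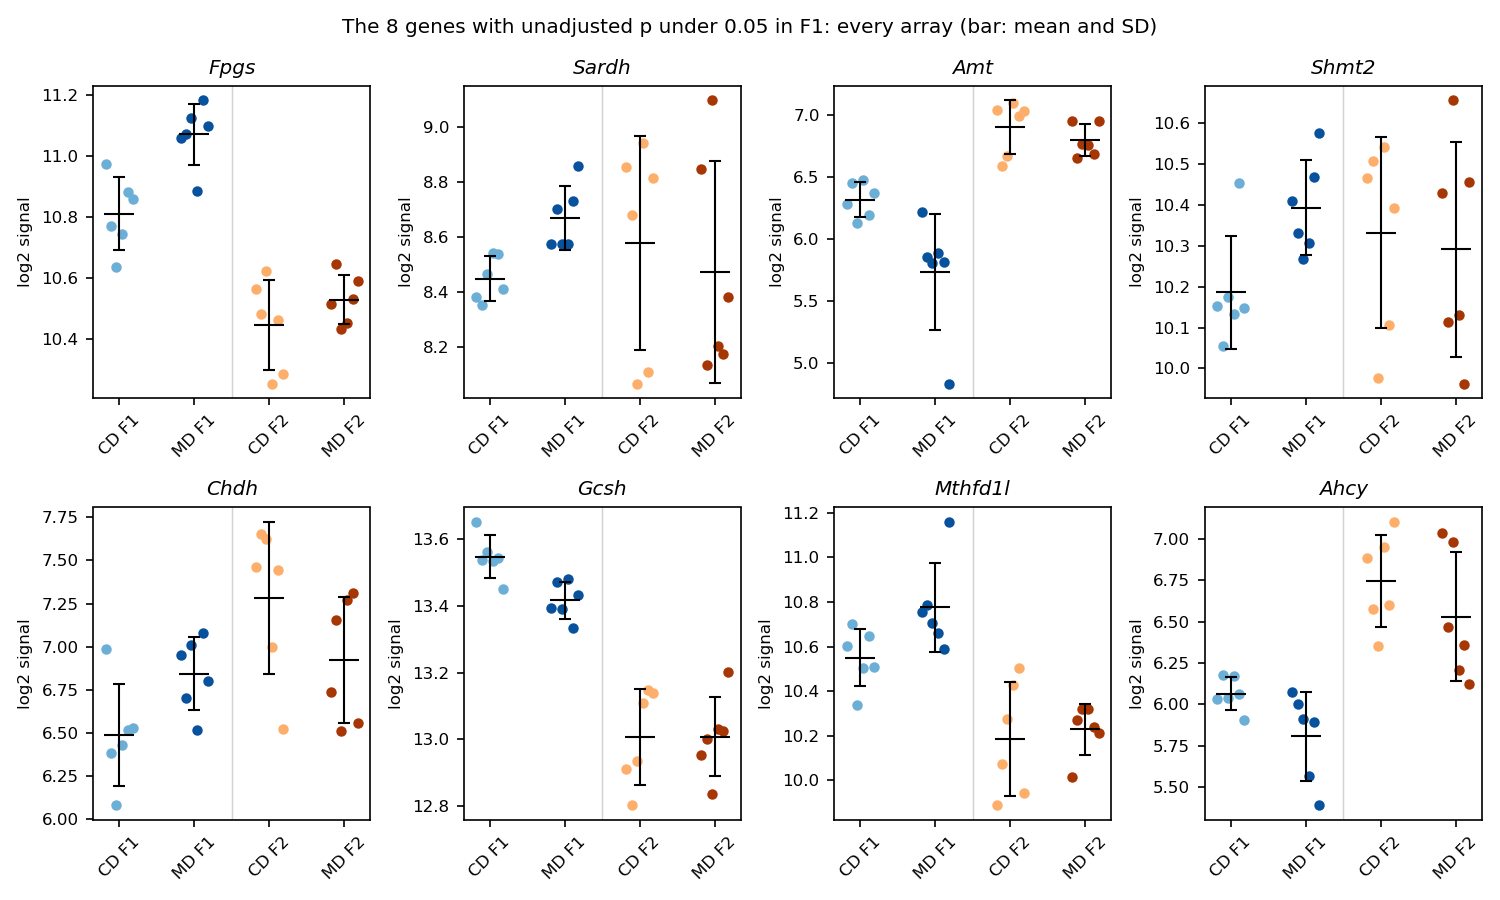
Log2 signal on every array for the 8 genes with an unadjusted p under 0.05 in F1, by generation and diet. Black bars are the mean and SD of 6 arrays, and the generations were normalized separately. The MD F1 points of Sardh all lie above its CD F1 points, the MD F1 points of Amt include 1 at 4.83, and the F2 points of every gene overlap between diets.

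The 6 cytosolic folate enzymes gave no difference with an unadjusted p under 0.05 in either generation. Aldh1l1, the formyltetrahydrofolate dehydrogenase that marks astrocytes, ranged from 13.40 to 13.60 in CD F1 and from 13.34 to 13.47 in MD F1, a difference of -0.08 with an interval of -0.20 to 0.04. In F2 it ranged from 12.65 to 12.79 and from 12.56 to 12.89 and differed by -0.02. Mthfs, the synthetase that returns 5-formyltetrahydrofolate to the active pool, had the fifth smallest p of the 40 in F2. It ranged from 7.31 to 7.68 in CD F2 (median 7.34) and from 7.32 to 7.80 in MD F2 (median 7.59), a difference of 0.18 ± 0.09 (SE) (limma, unadjusted p = 0.0826, FDR 0.912). The F1 difference of Mthfs was 0.17, with an interval of -0.11 to 0.45.

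Ftcd, a histidine breakdown enzyme that loads folate and is mainly a liver gene, measured 2.96 to 4.35 in CD F2 (median 3.52) and 3.72 to 7.91 in MD F2 (median 4.22). It was well above background on 3 of 6 arrays in each F2 group, and the value of 7.91 on MD F2 replicate 4 lay more than 3 log2 units above the next. The F2 difference was 1.19 with an interval of -0.19 to 2.57, and 0.55 without that array. In F1 Ftcd differed by -0.17, and the difference between the generations was -1.34 (limma, unadjusted p = 0.0693, FDR 0.638). Mthfd1, Shmt1 and Tyms, which interconvert folates for purines, serine and thymidylate, differed by -0.14 to 0.23 in F1 and by -0.17 to 0.01 in F2.

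Of the small-molecule methyltransferases, Gnmt, which methylates glycine and buffers S-adenosylmethionine, had the fourth smallest p in F2. It ranged from 7.66 to 8.10 in CD F2 (median 7.74) and from 7.50 to 7.73 in MD F2 (median 7.61), a difference of -0.18 ± 0.08 (SE) (limma, unadjusted p = 0.0568, FDR 0.892). The MD F2 arrays were shifted down but overlapped with CD F2. In F1 Gnmt differed by -0.04, with an interval of -0.20 to 0.12. Pemt, Nnmt and Gamt, which methylate phosphatidylethanolamine, nicotinamide and guanidinoacetate, differed by -0.11, 0.27 and 0.10 in F1 and by 0.13, -0.24 and 0.10 in F2. The other Pemt probes differed by 0.20 and -0.05 in F1, the first of them with no overlap between the groups (limma, unadjusted p = 0.0034, FDR 0.208), opposite in sign to the brightest. In transsulfuration, which turns homocysteine into cysteine, Cbs differed by -0.10 and Cth by 0.19 in F1, and by 0.02 and 0.04 in F2.

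Of the genes of polyamine synthesis, methionine salvage and adenosine removal, all 4 had lower means in MD F2. Mtap, the phosphorylase that begins methionine salvage, ranged from 7.98 to 8.32 in CD F2 (median 8.18) and from 7.70 to 8.09 in MD F2 (median 8.02). The lowest MD F2 values, 7.70 and 7.76, were those of replicates 6 and 3, and the others lay within the lower CD F2 range. The mean was lower by 0.23 ± 0.09 (SE), or -14.5% (limma, unadjusted p = 0.0277, FDR 0.890). The within-slide differences were -0.38, -0.28 and -0.02, and normexp and array weights gave -0.15 each. In F1 Mtap differed by -0.19, with an interval of -0.48 to 0.11, and the difference between the generations was 0.03. Amd1, Adi1 and Adk differed by -0.07 to 0.02 in F1 and by -0.15 to -0.03 in F2. Adi1 varied between arrays of 1 group far more in F2, where it spanned 9.90 to 11.62 in CD F2 and 9.69 to 11.72 in MD F2, than in F1, where it spanned 10.22 to 10.87 over both groups.

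The 5 genes of folate and choline transport and retention held the smallest p of the 40 in F1. Fpgs, the synthetase that adds glutamates to folate and so keeps it in the cell, ranged from 10.64 to 10.97 in CD F1 (median 10.81) and from 10.89 to 11.18 in MD F1 (median 11.09). Only CD F1 replicate 1, at 10.97, and MD F1 replicate 4, at 10.89, crossed. The mean was 0.26 ± 0.07 (SE) higher in MD F1, or 19.8% (limma, unadjusted p = 0.0034, FDR 0.208; exact permutation test, 2-sided p = 0.00433), with 0.29, 0.38 and 0.11 within the slides. In F2 its ranges were 10.25 to 10.62 and 10.43 to 10.65, and the difference was 0.08 with an interval of -0.09 to 0.26. The difference between the generations was 0.16, with an interval of -0.05 to 0.38.

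Ggh, the hydrolase that removes those glutamates again, ranged from 11.89 to 12.15 in CD F1 and from 11.74 to 12.44 in MD F1, a difference of -0.06. In F2 it ranged from 11.87 to 12.45 in CD F2 (median 12.18) and from 11.72 to 12.05 in MD F2 (median 11.90). The 4 CD F2 arrays with the highest choroid plexus markers held the 4 highest Ggh values, 12.15 to 12.45, and the other CD F2 arrays lay within the MD F2 range. The mean was lower by 0.29 ± 0.11 (SE) in MD F2, or -18.3% (limma, unadjusted p = 0.0174, FDR 0.890), and with the marker level as a covariate it was lower by 0.18 (unadjusted p = 0.0892). Slc19a1, the reduced folate carrier, had the same array pattern in F2. It was at 11.55, 11.38, 11.56 and 11.27 on CD F2 replicates 1, 2, 3 and 5 and at 11.35 on MD F2 replicate 2, and between 11.07 and 11.21 on the other 7 arrays. Its F2 difference was -0.14 ± 0.10 (SE), and -0.01 with the choroid plexus level as a covariate. In F1, where the ranges were 10.86 to 11.10 in CD F1 and 11.0038 to 11.18 in MD F1, it differed by 0.09, and by 0.10 with that covariate. The difference between the generations was 0.23 (limma, unadjusted p = 0.0585, FDR 0.621). Other F2 differences grew with the choroid plexus level as a covariate. Those of Fpgs, Mthfs and Gnmt became 0.17, 0.26 and -0.21 (limma, unadjusted p = 0.0305, 0.0218 and 0.0484, FDR 0.997 for each). That of Mtap was -0.22 (unadjusted p = 0.0584).

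Slc46a1, the proton-coupled folate transporter, differed by -0.05 in F1 and by -0.12 in F2. Slc44a1, a choline transporter, ranged from 12.33 to 12.66 in CD F1 and from 12.32 to 12.56 in MD F1 and differed by -0.05. Another Slc44a1 probe differed by -0.27 (unadjusted p = 0.0060) and the last by -0.02. In F2 the ranges were 11.84 to 12.28 and 11.73 to 12.35, and the difference was 0.09 with an interval of -0.17 to 0.35. Over the 18 genes with more than 1 probe, all probes had the same sign of difference in 9 in F1 and in 10 in F2.

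Of the 8 ependymal markers, genes of the ciliated cells that line the ventricle, 6 had higher means in MD F1. An unadjusted p under 0.05 was found for 5 of the 8, against 13.4% of all genes. Of these 5, Spef2 was lower (-0.84) and the other 4 higher, with the smallest p for Ccdc153 at 0.48. In F2, 7 of 8 had lower means in MD F2, 5 of them with an unadjusted p under 0.05, against 5.65% of all genes. The smallest was that of Ak7 at -1.12. None passed an FDR of 0.1 in these fits, whereas the paper lists Ccdc153 as changed in F1 at that threshold. The summed signal of the 8 on the log2 scale, which follows the brightest of them, was 14.36 to 14.81 in CD F1 and 13.07 to 14.67 in MD F1. It was 12.90 to 13.43 in CD F2 and 12.69 to 13.61 in MD F2, with 7 or 8 of 8 well above background on every array. The 10 meningeal markers all had lower means in MD F2, 3 of them with an unadjusted p under 0.05 (5.65% of all genes). In F1, 4 of the 10 had higher means in MD F1. In each of the lists for oligodendrocytes, microglia, endothelium, thalamus and striatum, 1 or 2 of 10 genes had an unadjusted p under 0.05 in F1 and 0 to 3 in F2. The shares of all genes were 13.4% in F1 and 5.65% in F2, and none of the listed genes passed an FDR of 0.1. The part of these cells in the opposite signs of Chdh, Dmgdh, Sardh, Bhmt and Bhmt2 in F1 and F2 was not tested.

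Outside the 40, a list of 48 genes of neighbouring pathways (serine, purine and phosphatidylcholine synthesis, vitamin B12 handling, polyamines, creatine, glutathione and cysteine) was read in the same way. In F1, 0 of 48 passed an FDR of 0.1 and 8 (16.7%, against 13.4% of all genes) had an unadjusted p under 0.05, 5 higher (10.4%, against 7.82%) and 3 lower (6.25%, against 5.54%). The smallest p values were those of Chka, a choline kinase, at -0.27, Csad, an enzyme of taurine synthesis, at 0.21, and Mri1, of methionine salvage, at 0.19 (FDR 0.206, 0.241 and 0.259). All 7 genes of glutathione and cysteine had a higher mean in MD F1, as did 54.7% of all genes, of which 1, Csad, had an unadjusted p under 0.05. In F2, 0 of 48 passed and 2 (4.17%, against 5.65% of all genes) had an unadjusted p under 0.05, namely Mri1 at 0.49 and Mmadhc, a vitamin B12 trafficking gene, at -0.24 (FDR 0.890 for both), followed by the dim choline transporter-like gene Slc44a3 at -0.73 (FDR 0.892).

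Between the generations, with all 24 arrays normalized together, 28 of the 40 genes were higher on average in F2 and 12 lower. For 10 of the 40 (25%) the 12 F2 arrays did not overlap with the 12 F1 arrays, against 27.7% of all genes. The largest such difference was that of Mtap, from 5.70 to 6.56 in F1 and from 7.85 to 8.47 in F2, a mean difference of 2.09. Ahcyl1, Amt and Ahcy were higher in F2 by 1.49, 1.19 and 1.08, and Slc19a1, Ahcyl2, Cbs, Slc46a1 and Gldc by 0.36 to 0.59. Mtrr alone was lower, by 0.83. Each generation was hybridised on its own 3 slides and scanned on its own day, and the strain labels differ, so that generation, slide, scan and strain background cannot be told apart. The SD within a diet group was larger in F2 for 27 of 40 genes, with medians of 0.17 in F1 and 0.18 in F2.

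**Figure D4:**
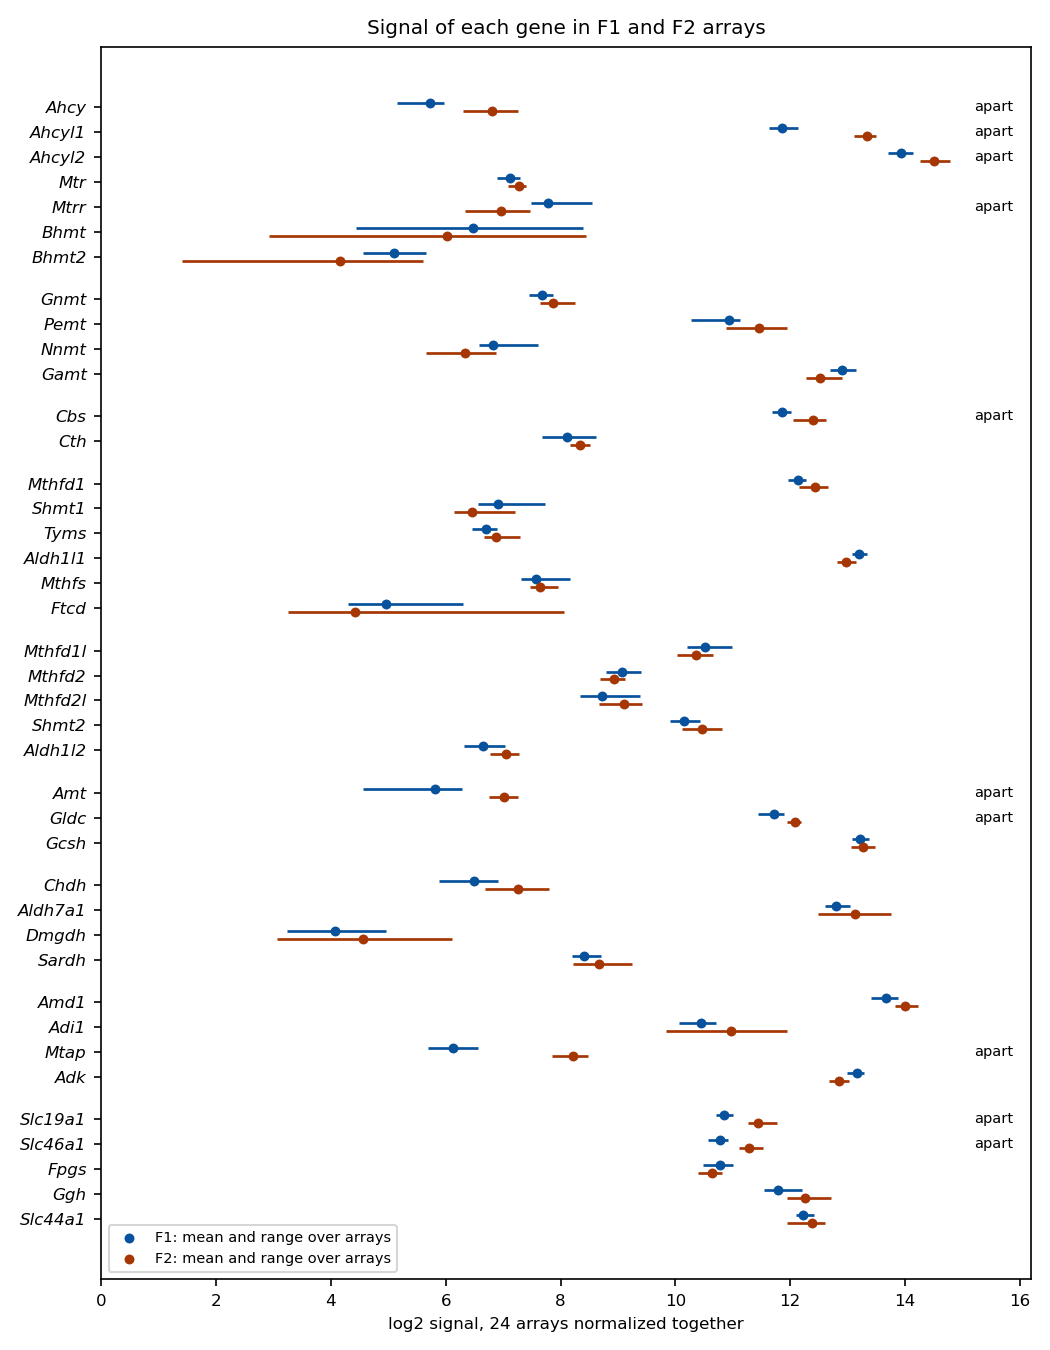
Mean (point) and range (line) of the log2 signal of each gene over the F1 arrays (blue) and F2 arrays (red), all 24 arrays normalized together, with genes ordered by role. The 10 genes whose F1 and F2 arrays did not overlap are marked "apart", with Mtap furthest apart at 2.09. Levels of different genes are not comparable, since each probe has its own brightness.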

How the data were processed

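Hippocampal RNA (RNeasy), labelled with Cy3, was hybridised to 1-colour Agilent mouse arrays, 24 arrays in 4 groups. Per the file headers, the deposited intensity values are processed signals from Feature Extraction 10.7.3.1, background-subtracted within the array and not scaled between arrays. A deposited table of intensities normalized by the authors served as an alternative.

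Processed signals were converted to log2, irregular spots were left out (1939 in F1, 2097 in F2), and spots were quantile-normalized within each generation, or over 24 arrays for the difference between generations, and averaged per probe. Probes were named through RefSeq (GRCm38.p6 table): 26055 of 39429 probes had 1 symbol. Groups were taken from the labels. MD and CD were compared with limma 3.58.1 in R 4.3.3 over all probes with Benjamini-Hochberg adjustment (FDR threshold 0.1). The script was tested on simulated data. Exact permutation tests were 2-sided over all splits of 6 against 6 arrays, with 0.00216 as the smallest p. An FDR or p of a single gene refers to its brightest probe. An interval is the 95% interval of the limma fit. Log2 differences of dim probes depended on how background was treated, and the number of arrays limits the precision.

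Full values are given for the 8 genes with the smallest p in F1, 5 in F2 and 5 in the difference between generations, any gene with groups that do not overlap, and Ahcy, Mtr, Aldh1l1, Shmt2, Gldc, Slc19a1 and Slc44a1. The other genes are given by ranges. The genes, lists and tests were chosen with earlier results of these data known. Alternatives were other scalings, normexp (offset 50) on the median signal, the authors' values, filters, blocks for slide and replicate number, a sex measure, array weights, other probe summaries and leaving out each array. The meaning of codes lh and rh in the F2 labels is not given in the sources used here. Lists of choroid plexus, ependyma, hippocampal neuron, astrocyte, oligodendrocyte, microglia, endothelium, meninges, thalamus and striatum markers were read in the same way.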

Additional observations from a re-analysis of the deposited data

Results flagged for a closer look

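Each of the 160 sets of values, 40 genes in 4 groups, was searched for an array whose gap to the nearest other array took up an unusual share of the range of its group by Dixon's criterion. Of these, 17 held such an array, and chance alone gives about 1 in 20 sets.

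MD F1 replicate 6 accounted for 8 of the 17. On it Mtrr was at 8.70 (others 7.85 to 8.0003), Nnmt at 7.76 (6.85 to 7.17), Shmt1 at 7.88 (6.85 to 7.19), Mthfd1l at 11.16 (10.59 to 10.79), Mthfd2l at 9.53 (8.49 to 8.79) and Aldh7a1 at 13.30 (12.86 to 13.01), all high, and Pemt at 10.42 (11.02 to 11.26) and Amt at 4.83 (5.81 to 6.22), both low. This array also had the lowest median signal of its generation before normalization, 166.6 against 201.1 to 317.8 on the other F1 arrays.

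In CD F1, replicate 5 was high for Ftcd at 6.49 (4.86 to 5.35) and for Shmt2 at 10.45 (10.05 to 10.17). In CD F2, Tyms was high at 7.14 on replicate 6 (6.49 to 6.70) and Mthfs at 7.68 on replicate 3 (7.31 to 7.38). In MD F2, Ftcd was high at 7.91 on replicate 4 (3.72 to 4.63), Mthfd1l low at 10.01 on replicate 1 (10.21 to 10.32), Mtr low at 6.92 on replicate 5 (7.11 to 7.19), Amd1 low at 13.53 on replicate 3 (13.65 to 13.70) and Slc44a1 low at 11.73 on replicate 6 (12.17 to 12.35).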

How the results depend on the processing

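No gene of the 40 passed an FDR of 0.1 in F2 or in the difference between generations under any setting, nor in F1 except without normalization (7 genes or 17.5%, against 20.2% of all probes) and with array weights (1 gene, Fpgs, 0.28, FDR 0.0911, against 1.41% of all probes). The FDR of Fpgs was as high as 0.982, without normalization. Leaving out each array in turn gave 0 to 0 genes in every comparison. At an unadjusted p under 0.05, the 8 genes of F1 became 14 without normalization (35%, against 35.3% of all probes). They became 5 with normexp (all probes 13.6%) and 2 with all 24 arrays fitted together, where the share of all probes also fell. They became 4 to 10 when single arrays were left out. The number was 4 without CD F1 replicate 3 (all probes 11.6%) and 5 without CD F1 replicate 2 (all probes 11.2%). The 3 genes of F2 became 1 without normalization (all probes 1.39%) and 2 to 5 when arrays were left out (5 without CD F2 replicate 3, all probes 4.95%). With the choroid plexus level as a covariate the number stayed at 3 (all probes 4.41%), but these were Fpgs, Mthfs and Gnmt in place of Dmgdh, Ggh and Mtap. The 3 genes of the difference between generations became 12 with array weights (all probes 13.4%). The choroid plexus level as a covariate gave 1 (all probes 7.47%). Leaving out CD F2 replicate 6, MD F2 replicate 3 and MD F1 replicate 6 together gave 5 (all probes 9.33%). The last 2 alternatives were chosen after seeing the data. Leaving out single arrays gave 2 to 7. The number was 7 without CD F2 replicate 4 (all probes 9.35%) and 6 without CD F2 replicate 6 (all probes 9.49%). It was 5 without MD F2 replicate 3 (all probes 9.22%) or 5 (all probes 7.49%). The median difference of the 40 moved to -0.26 in F1 and -0.10 in F2 without normalization, where all probes moved to -0.28 and -0.04, and lay between 0.00 and 0.07 in F1 and between -0.04 and -0.01 in F2 when arrays were left out. For the 48 other pathway genes, 8 in F1 became 15 without normalization (all probes 35.3%). They became 3 with all arrays together, where the share of all probes also fell. They became 5 with the sex measure (all probes 9.94%) and 6 to 10 when arrays were left out. Their 2 in F2 became 1 without normalization (all probes 1.39%), 4 with all arrays together (all probes 8.76%) and 4 with the replicate block (all probes 5.07%). They became 4 with the code of the F2 labels (all probes 6.53%), 6 with the sex measure (all probes 7.18%) and 8 with array weights (all probes 11.6%). Leaving out arrays gave 2 to 4 (4 without CD F2 replicate 6, all probes 6.28%).

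The replicate numbers were not taken to pair the arrays, since same-numbered CD and MD arrays correlated only between -0.05 and 0.20 in F1 and between -0.17 and 0.19 in F2. CD F2 replicates 1 and 2 did correlate best with the MD F2 array of the same number (0.179 and 0.193), and the other CD arrays did not. A batch shared by same-numbered arrays was not tested further. With the replicate block, 8 genes in F1, 4 in F2 and 4 in the difference between generations had an unadjusted p under 0.05, and none an FDR under 0.1. The shares of all probes with such a p were 13.4%, 5.07% and 8.46%.

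Differences that kept their sign but moved by over 1.5 times in addition to those named with each gene were -0.40 for Ahcy in F1 with the 75th percentile and -0.15 with array weights, 0.22 for Chdh in F1 with the mean of all probes, and between generations -0.33 for Amt with array weights and -0.31 without MD F1 replicate 6, and 0.46 for Chdh without normalization. Signs of single differences changed as follows. Without normalization, Sardh became -0.0931, Shmt2 -0.0623, Chdh -0.0167, Mthfd1l -0.0267, Dmgdh -0.32, Mthfs -0.16, Slc19a1 -0.17, Mtr -0.27 and Gldc -0.17 in F1, Gcsh -0.00949 and Mthfd1l -0.0197 in F2, and Fpgs -0.0316, Mthfd1l -0.0070, Mtap -0.25, Gnmt -0.0871, Mtr -0.15 and Gldc -0.17 between generations. With the 75th percentile, Dmgdh became -0.0683 and Mtr -0.0125 in F1, Aldh1l1 0.0193 in F2 and Mtap -0.0375 between generations. With the sex measure, Mthfs became -0.056 in F1 and 0.00636 between generations. With array weights, Ahcy became 0.16, Mtap -0.0483 and Aldh1l1 0.0124 between generations. Gcsh in F2 became -0.000535 with all arrays together, -0.000343 with the authors' values and -0.0705 with the choroid plexus level, which also turned Mtr (0.00408) and Aldh1l1 (0.000863) in F2. Mthfs between generations became 0.00409 with the authors' values and 0.0234 with normexp, and Slc44a1 in F2 -0.0809 with the mean of all probes. Without the arrays that stood apart, Mthfd1l in F2 became -0.0219, Mtr in F2 0.0013 and Ahcy between generations 0.0461. When single arrays were left out, the ranges that crossed 0 were -0.051 to 0.28 for Dmgdh and -0.27 to 0.0684 for Ftcd in F1, -0.11 to 0.0254 for Shmt2, -0.0403 to 0.0358 for Gcsh, -0.0162 to 0.11 for Mthfd1l, -0.0354 to 0.0328 for Mtr, -0.0587 to 0.00666 for Aldh1l1 and -0.00538 to 0.0384 for Gldc in F2, and -0.14 to 0.0400 for Ahcy, -0.0574 to 0.0996 for Mtap and -0.10 to 0.0526 for Mthfs between generations. The causes were not tested. Bhmt, Bhmt2, Ftcd and Dmgdh were not well above background on every array, which limits what can be said of them.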

Other observations

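Sardh, Pemt and Cbs were spread more widely between F2 arrays of 1 diet than the diets differed, which was noticed after the values were seen and not tested. This was not particular to them, and Aldh7a1, Adi1, Mtrr and Ahcy, for example, were so in F2 as well. Sardh was at 8.85, 8.68, 8.07, 8.94, 8.11 and 8.81 on CD F2 replicates 1 to 6 and at 8.85, 8.14, 9.10, 8.20, 8.18 and 8.38 on MD F2 replicates 1 to 6. Pemt, which methylates phosphatidylethanolamine, was in the same order of arrays at 11.49, 11.27, 10.86, 11.42, 10.72 and 11.39 and at 11.72, 11.13, 11.68, 10.83, 11.16 and 11.38. Cbs, which commits homocysteine to cysteine, was at 12.24, 12.26, 11.81, 12.37, 11.87 and 12.35 and at 12.28, 11.87, 12.37, 12.25, 12.06 and 12.22. All 3 were lowest in CD F2 on replicates 3 and 5, and all 3 were highest in MD F2 on replicates 1 and 3.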
